A study of Mus musculus with 15 samples.

Results

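The endoplasmic reticulum (ER) is the main calcium store of most cells. SERCA pumps fill it from the cytosol, inositol trisphosphate (IP3) receptors empty it when a receptor at the cell surface activates phospholipase C, and STIM1 senses an empty store and opens the ORAI1 channel in the plasma membrane. In the kidney tubule these steps shape the calcium signals that follow adrenergic and other hormones, and the folding of secreted and membrane proteins needs a filled store. The genes described here were the SERCA pumps Atp2a2 and Atp2a3, the IP3 receptors Itpr1, Itpr2 and Itpr3, the sensor Stim1, the channel Orai1, and Gm43360, a long noncoding RNA transcribed from within Atp2a2. These 8 genes of 33058 with a name in the deposited table were chosen by name, with their levels at 3 and 24 months already known. They comprised 69 of 129029 transcripts and 79 of 11929 circular RNAs.

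RNA was sequenced from kidneys of 15 male C57BL/6 mice, 5 each at 3, 12 and 24 months of age, fed standard chow, with no treatment or genetic change named in the labels. The paper's methods give the strain as C57BL/6J. Of the 15 sample titles, 10 begin with the code for 3 months although their age field reads 12 or 24 months. The ages used here are those of the age field, which the column names of the deposited tables share. Each mouse gave 1 library, and whole kidney was used, so every value is an average over all renal cell types. A gene's level was the sum of the FPKM (fragments scaled for transcript length and sequencing depth) of its transcripts. The libraries held between 5.03 and 6.13 Gb of aligned bases at 3 months, 5.84 and 8.03 Gb at 12 months, and 6.07 and 7.33 Gb at 24 months. Markers of the kidney were present at every age: the proximal tubule markers Slc34a1, Lrp2 and Slc5a2 summed to between 1163 and 1681 FPKM in all 15 mice, with overlapping ranges at the 3 ages. The 6 markers of B and plasma cells (Cd79a, Cd79b, Ms4a1, Jchain, Igkc and Mzb1) summed to between 10.4 and 93.8 FPKM at 3 months, 54.0 and 374 at 12 months, and 87.3 and 200 at 24 months. The collecting duct markers Aqp2 and Slc4a1 summed to between 32.95 and 138 FPKM at 3 months (median 68.2), 28.3 and 47.8 at 12 months (median 29.8), and 23.0 and 57.7 at 24 months (median 37.6), and so had their highest median at 3 months, like Atp2a2 and Itpr1. So did the thick limb markers Umod and Slc12a1, with medians of 1087, 972 and 1061 FPKM at 3, 12 and 24 months. The ranges of both lists overlapped between ages, and the other marker lists examined had their highest median at 12 or 24 months. The part of these cells in the results was not tested.

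Gm43360 lies at chr5:122492022-122494908 on the minus strand (GRCm38), as a single exon of 2887 bases. Atp2a2 is transcribed from the same strand, and Gm43360 falls wholly within its intron 3, which is 8945 bases long. Its 5′ end is 5822 bases past exon 3, and its 3′ end is 236 bases before exon 4. It overlaps no exon of the main Atp2a2 transcript. The GENCODE annotation gives it no biotype beyond a transcript still to be tested experimentally, and no coding frame. The following stretch of 203 bases, chr5:122494629-122494831 on the minus strand, is the part amplified by the study's qPCR primers, and is shown because it is the sequence by which this RNA was tracked. Capitals mark the forward primer site and the complement of the reverse primer.

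Gm43360 amplicon: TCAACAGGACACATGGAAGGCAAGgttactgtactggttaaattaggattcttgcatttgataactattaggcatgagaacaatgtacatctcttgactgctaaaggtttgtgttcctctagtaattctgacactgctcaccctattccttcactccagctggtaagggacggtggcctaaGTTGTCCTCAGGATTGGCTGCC

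Atp2a2 encodes SERCA2 in 2 forms that differ in their coding ends. SERCA2b, the form of most tissues, ends in an extra stretch that adds a further membrane segment. SERCA2a, the form of heart and slow muscle, skips that stretch and ends in a distal exon. The 2 coding transcripts share 2983 coding bases, after which 152 bases are particular to the SERCA2b end and 14 to the SERCA2a end. The last 30 shared bases are in lower case below, and the bases particular to each form in capitals. The first runs over chr5:122457151-122457332 and the second splices from that exon to chr5:122454291, both on the minus strand.

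SERCA2b end: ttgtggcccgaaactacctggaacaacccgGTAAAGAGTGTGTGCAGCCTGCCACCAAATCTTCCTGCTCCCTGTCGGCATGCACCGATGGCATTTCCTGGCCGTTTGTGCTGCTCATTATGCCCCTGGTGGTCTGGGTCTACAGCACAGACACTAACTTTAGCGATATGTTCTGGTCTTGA
SERCA2a end: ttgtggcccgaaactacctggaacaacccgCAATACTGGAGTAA

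**Figure D1:**
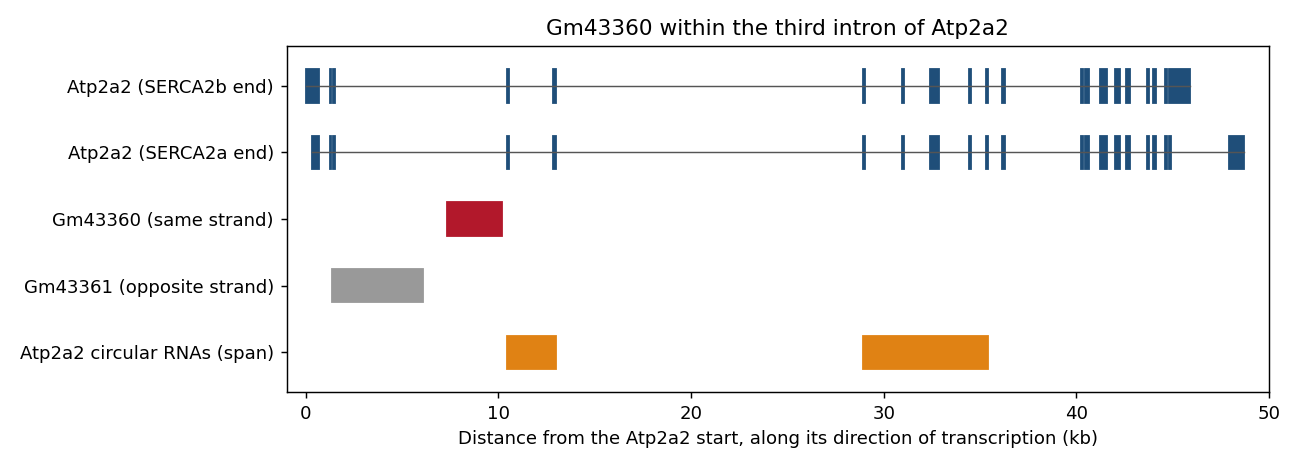
Map of the Atp2a2 locus, with distance from the Atp2a2 start in kb on the horizontal axis and 1 track for each feature; blue boxes are exons. Gm43360 (red) sits in intron 3 ahead of exon 4, where the first of the 2 Atp2a2 circular RNAs (orange spans) begins, and Gm43361 (grey) runs on the opposite strand.

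Atp2a2 was the most abundant of the 8 genes, with a mean of 96.4 FPKM over the 15 mice. At 3 months it stood at 136, 126, 119, 148 and 125 FPKM in replicates 5 to 9. At 12 months it stood at 94.8, 90.4, 81.9, 84.0 and 76.8 FPKM in replicates 17 to 21, and at 24 months at 73.7, 71.7, 73.4, 74.97 and 70.1 FPKM in replicates 31 to 35. The 3 ages did not overlap: every 12-month-old mouse was below every 3-month-old mouse, and every 24-month-old mouse below every 12-month-old mouse. The means were 131 ± 11.4, 85.6 ± 7.08 and 72.8 ± 1.91 FPKM (SD, n = 5 each). In whole kidney, fewer cells of a type and less of the RNA per cell cannot be told apart.

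Between 3 and 12 months Atp2a2 fell by 0.61 ± 0.089 on the log2(FPKM + 1) scale (SE; limma adjusted p = 0.0432 over 31637 genes). That call was close to its threshold: the adjusted p lay between 0.0534 and 0.0972 whenever any 1 of the 10 mice was left out, and was 0.0543 on TPM, while the change stayed between -0.66 and -0.56 in these fits. Of all genes tested, 0.0537% were called lower in this comparison, and 0.667% lay lower at 12 months without overlap. Between 12 and 24 months the log2 fold change was -0.23 ± 0.067, with an adjusted p of 0.676 in limma. Of all genes tested, 0.573% lay lower at 24 months without overlap. These 2 comparisons each share mice with that of 24 against 3 months, which was known when the genes were chosen and is given as a description. There the log2 fold change was -0.84 ± 0.075, the mean was lower by 44.4%, and 0.91% of all genes lay lower without overlap.

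Gm43360 was measured at a far lower level. At 3 months it stood at 3.18, 5.93, 4.99, 7.99 and 6.24 FPKM. At 12 months it stood at 1.18, 2.90, 3.82, 3.70 and 2.46 FPKM, and at 24 months at 2.32, 4.03, 3.01, 0 and 4.33 FPKM. The ages overlapped in both comparisons with the 3-month-old mice, and the 24-month-old mouse of replicate 34 was listed at 0. The means were 5.67 ± 1.76, 2.81 ± 1.07 and 2.74 ± 1.73 FPKM (SD, n = 5 each). The log2 fold change at 12 against 3 months was -0.82 ± 0.26, which did not pass the test over all genes (limma adjusted p = 0.197). At 24 against 12 months it was -0.18 ± 0.45 (limma adjusted p = 0.929). The description at 24 against 3 months was -0.997 ± 0.44, and -0.57 without replicate 34.

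**Figure D2:**
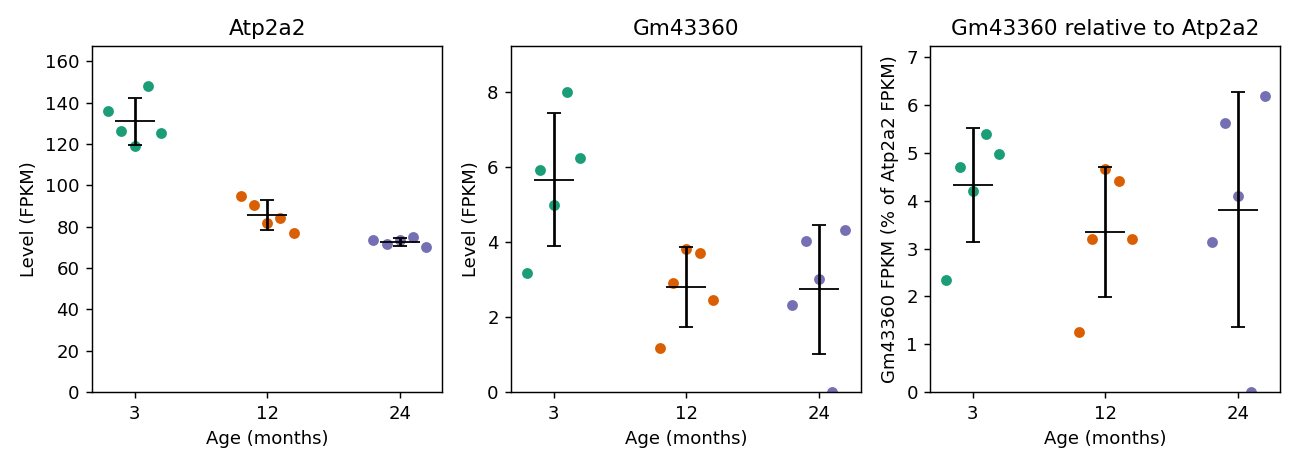
FPKM of Atp2a2 (left) and Gm43360 (middle), and Gm43360 as a percentage of Atp2a2 (right), by age in months; points are mice, and bars are the mean ± SD of 5 mice. Atp2a2 descends in 3 ranges that do not overlap, Gm43360 overlaps between ages, and the percentage overlaps between all ages.

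Relative to its host gene, Gm43360 showed no detected change. Its FPKM was 4.32 ± 1.19% of that of Atp2a2 at 3 months, 3.34 ± 1.35% at 12 months and 3.81 ± 2.45% at 24 months (SD, n = 5 each). The difference at 12 against 3 months was -0.98 percentage points (exact permutation test, 2-sided, p = 0.270, adjusted p = 0.490 over 12 tests of such shares). At 24 against 12 months it was 0.47 percentage points (exact permutation p = 0.754, adjusted p = 0.823). The smallest p this design allows is 0.00794. Reads from unspliced Atp2a2 RNA would fall on the same strand of this intron, and their part in the Gm43360 level was not tested.

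Within ages, mice with more Gm43360 did not have more Atp2a2. With each age centred, Pearson's r was -0.24 (permutation p = 0.260) and Spearman's rho was -0.54 (permutation p = 0.0612) over 15 mice, with 100000 permutations within ages. Without the 2 mice farthest from the median of Gm43360, replicates 17 and 34, r was 0.12. Over the 7 relations with the other members, no adjusted p passed the threshold. The lowest raw value was for Stim1, with r = -0.58 (permutation p = 0.0498, adjusted p = 0.349) and rho = -0.63 (permutation p = 0.0405, adjusted p = 0.214), and r = -0.45 without the same 2 mice.

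The 10 genes with a transcript within 100 kb of Gm43360 included Atp2a2 itself. Gm43361, on the opposite strand and overlapping exon 3 of Atp2a2, was listed at 0 in 4 mice and lay between 4.15 and 9.88 FPKM in the other 11. Ift81, which encodes a subunit of the transport machinery of cilia, had means of 3.38, 5.004 and 4.93 FPKM at 3, 12 and 24 months, with a log2 fold change of 0.43 ± 0.090 at 24 against 3 months that missed the threshold (limma adjusted p = 0.0564). Anapc7, a subunit of the anaphase-promoting complex, had means of 8.72, 10.8 and 10.4 FPKM, and a log2 fold change of 0.22 ± 0.065 (limma adjusted p = 0.141). Gm15846, an annotated gene model, had means of 0.670, 2.35 and 2.17 FPKM, and log2 fold changes of 1.03 ± 0.22 at 12 against 3 months and 0.93 ± 0.24 at 24 against 3 months (limma adjusted p = 0.0848 and 0.1004). Of the 10, 6 had a mean of at least 1 FPKM.

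Adra1a and Csnk1a1 are the genes that the study paired with Gm43360. Adra1a, an adrenergic receptor that signals through phospholipase C, had means of 11.5 ± 3.11, 8.23 ± 1.33 and 6.43 ± 1.39 FPKM (SD, n = 5 each). Its log2 fold change at 24 against 3 months was -0.73 ± 0.21 (limma adjusted p = 0.126). Csnk1a1, a casein kinase, had means of 37.8 ± 5.97, 40.5 ± 5.09 and 44.9 ± 7.33 FPKM, with a log2 fold change of 0.24 ± 0.14 (limma adjusted p = 0.465).

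Most of the Atp2a2 signal belonged to the SERCA2b transcript, ENSMUST00000031423. It held between 66.2% and 90.2% of the gene's FPKM in the 15 mice, with means of 76.2 ± 5.94%, 81.3 ± 4.61% and 82.6 ± 6.26% at 3, 12 and 24 months (SD, n = 5 each). The share was 5.12 percentage points higher at 12 than at 3 months (exact permutation p = 0.151, adjusted p = 0.362) and 1.28 points higher at 24 than at 12 months (exact permutation p = 0.722, adjusted p = 0.823). The level itself was lower in older mice, with means of 99.3 ± 6.65, 69.6 ± 7.25 and 60.0 ± 4.36 FPKM. Every 3-month-old mouse was above every older one, where 0.524% of all transcripts lay lower without overlap at 12 months and 0.53% at 24 months. The log2 fold change was -0.51 ± 0.13 at 12 against 3 months (limma adjusted p = 0.423 over all transcripts) and, as a description, -0.72 ± 0.12 at 24 against 3 months. The SERCA2a transcript, ENSMUST00000177974, made up between 1.55% and 8.53% of the 2 transcripts annotated as coding, and its ranges overlapped at all ages. Of all Atp2a2 FPKM it made up between 1.39% and 7.72%.

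The second most abundant Atp2a2 transcript was ENSMUST00000179939, which is annotated as a target of nonsense-mediated decay, the pathway that degrades RNAs whose stop codon is read as premature. Its exon 20 contains the SERCA2b end, and its annotated coding frame has 3135 bases, like that of ENSMUST00000031423. In the SERCA2b share given above this transcript does not count as SERCA2b. It stood at 21.6, 22.1, 20.004, 36.2 and 17.8 FPKM at 3 months. At 12 months it stood at 16.0, 5.32, 7.84, 8.53 and 13.9 FPKM, and at 24 months at 11.1, 5.35, 0, 9.98 and 8.92 FPKM. The 3-month-old mice were above all older ones, where 0.524% of all transcripts lay lower without overlap at 12 months and 0.53% at 24 months. At 12 against 3 months its log2 fold change was -1.16 ± 0.29 (limma adjusted p = 0.424 over all transcripts). It was the 1 member transcript of 69 tested there with an unadjusted p under 0.05 together with a log2 fold change beyond 1 in either direction, limits met by 0.784% of all transcripts. StringTie divides shared reads between such transcripts, so their levels are not independent.

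At 24 against 3 months 2 of 68 member transcripts met those limits, where 0.795% of all transcripts did, and nothing is read from that count. ENSMUST00000179939 had a log2 fold change of -1.97 ± 0.63. The assembled Itpr1 transcript MSTRG.31035.1 had 1.05 ± 0.46, with mean levels of 0.0966 and 1.75 FPKM. The Gm43360 transcript, at the gene's value given above, was just outside the fold limit. In the comparison of 24 with 12 months none of 68 met the limits, where 0.402% of all transcripts did, and 1 had p under 0.05 in limma.

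The other SERCA gene with a measurable level, Atp2a3, ranged between 4.402 and 8.52 FPKM, and the ages overlapped in every comparison. Its log2 fold changes were 0.18 ± 0.16 at 12 against 3 months and -0.10 ± 0.13 at 24 against 12 months (limma adjusted p = 0.655 and 0.844). Atp2a1, the pump of fast muscle, did not exceed 0.149 FPKM. Of the FPKM of the 3 pumps, Atp2a2 held 95.6 ± 1.14% at 3 months, 92.6 ± 1.34% at 12 months and 92.0 ± 1.44% at 24 months (SD, n = 5 each). The difference of -3.04 percentage points at 12 against 3 months passed the test (exact permutation p = 0.00794, the smallest possible, adjusted p = 0.0476 over 12 tests). It was not a fresh test, because the levels of the 3-month-old mice were known when the genes were chosen. Nor was it separate from the lower Atp2a2 level given above, since Atp2a3 overlapped between ages and Atp2a1 was near 0. The adjusted p, just under 0.05, depends on the number of shares tested.

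**Figure D3:**
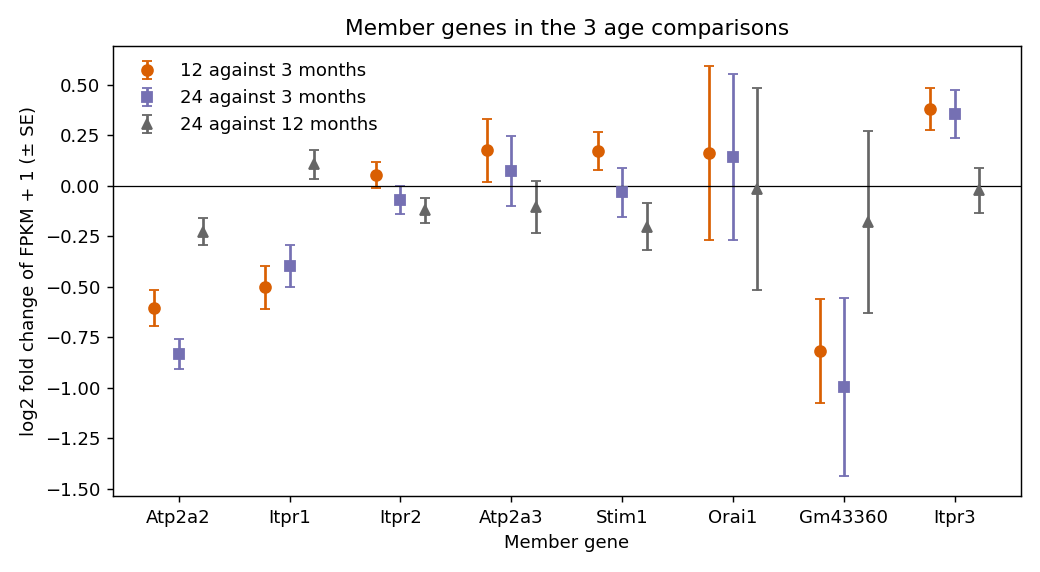
Log2 fold change of FPKM + 1 (± SE, limma) of the 8 member genes in the 3 age comparisons, with genes in order of mean level from left to right. Atp2a2 and Itpr1 lie below 0 and Itpr3 above 0 in both comparisons with 3-month-old mice, and Gm43360 and Orai1 have the widest errors.

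Itpr1, the IP3 receptor with the highest summed FPKM in these kidneys, was lower in the older mice. At 3 months it stood at 49.9, 56.6, 61.2, 66.2 and 46.0 FPKM. At 12 months it stood at 35.8, 40.9, 35.4, 40.1 and 42.6 FPKM, and at 24 months at 41.2, 40.5, 38.3, 45.6 and 44.1 FPKM. All 3-month-old mice were above all 12- and 24-month-old mice, where 0.667% and 0.91% of all genes lay lower without overlap, and the 2 older ages overlapped. At 12 against 3 months the log2 fold change was -0.50 ± 0.11, which missed the threshold (limma adjusted p = 0.0846) and passed it with all 15 mice in one fit (limma adjusted p = 0.0313). At 24 against 12 months it was 0.10 ± 0.073 (limma adjusted p = 0.820). The description at 24 against 3 months was -0.40 ± 0.10.

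Itpr2 had about the same level at all ages, with means of 21.2 ± 1.54, 21.99 ± 1.29 and 20.1 ± 1.43 FPKM (SD, n = 5 each). Its log2 fold change was 0.05 ± 0.066 at 12 against 3 months (limma adjusted p = 0.724) and -0.12 ± 0.064 at 24 against 12 months (limma adjusted p = 0.812). Itpr3 had the lowest summed FPKM of the receptors, and its mean went from 1.48 ± 0.22 FPKM at 3 months to 2.22 ± 0.27 at 12 months and 2.18 ± 0.41 at 24 months. The 3- and 12-month-old mice did not overlap for Itpr3, where 3.45% of all genes lay higher without overlap, and the log2 fold change of 0.38 ± 0.10 did not pass the test over all genes (limma adjusted p = 0.150).

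The makeup of the summed receptor FPKM differed between 3 and 12 months. Itpr1 held 70.9 ± 3.45% of the FPKM of the 3 IP3 receptors at 3 months, 61.6 ± 1.79% at 12 months and 65.2 ± 2.49% at 24 months (SD, n = 5 each). The share fell by 9.30 percentage points between 3 and 12 months (exact permutation p = 0.00794, adjusted p = 0.0476 over 12 tests). The 3-month-old mice were also part of the comparison known when the genes were chosen, so this was not a fresh test. Nor is the share separate from the lower Itpr1 sum given above. The adjusted p, just under 0.05, depends on the number of shares tested. The difference between 12 and 24 months did not pass after adjustment (exact permutation p = 0.0476, adjusted p = 0.190).

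Much of the receptor signal lay on transcripts assembled from these libraries rather than annotated ones, 81.4% of the FPKM for Itpr1 and 59.7% for Itpr2. The annotated Itpr1 transcripts of 62 exons, ENSMUST00000032192 and ENSMUST00000203615, held 0.987% and 0.645% of that gene's FPKM. The assembled MSTRG.31035.16, with 12.3%, is 65827 bases long, against 9870 for ENSMUST00000032192. The Itpr1 sum and its share of the receptors are therefore not levels of full-length receptor mRNA alone, and the order of the receptors by sum is not their order by such mRNA. The 62-exon Itpr1 transcripts averaged 0.450 and 0.294 FPKM over the 15 mice, against 1.25 for ENSMUST00000079573 of Itpr2 and 1.96 for the only Itpr3 transcript. Levels listed for individual Itpr2 transcripts differed between mice while the gene's sum stayed level. The full-length annotated transcript ENSMUST00000079573 was listed at 0 in 11 mice and stood at 6.72, 4.84, 2.19 and 5.04 FPKM in replicates 5, 17, 18 and 31. In 3 of those mice, replicates 5, 17 and 31, the assembled transcript MSTRG.31829.1 was at 0.407, 0.380 and 0.365 FPKM, and it was between 3.40 and 5.41 FPKM in the other 12. These differences occurred at all 3 ages. StringTie divides shared reads between such overlapping transcripts, and whether isoform use differed was not tested.

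Of the store-operated entry members, Stim1 lay between 3.85 and 6.59 FPKM and its ages overlapped. Its log2 fold changes were 0.17 ± 0.094 at 12 against 3 months (limma adjusted p = 0.459) and -0.20 ± 0.12 at 24 against 12 months (limma adjusted p = 0.820). Orai1 fell into separate ranges within each age. It stood between 6.45 and 7.58 FPKM in replicates 5, 17, 18, 32 and 35, and between 0.816 and 2.96 FPKM in the other 10 mice. The difference came from ENSMUST00000121652, which held 81.5% of the gene's FPKM. The log2 fold change was 0.16 ± 0.43 at 12 against 3 months (limma adjusted p = 0.881).

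**Figure D4:**
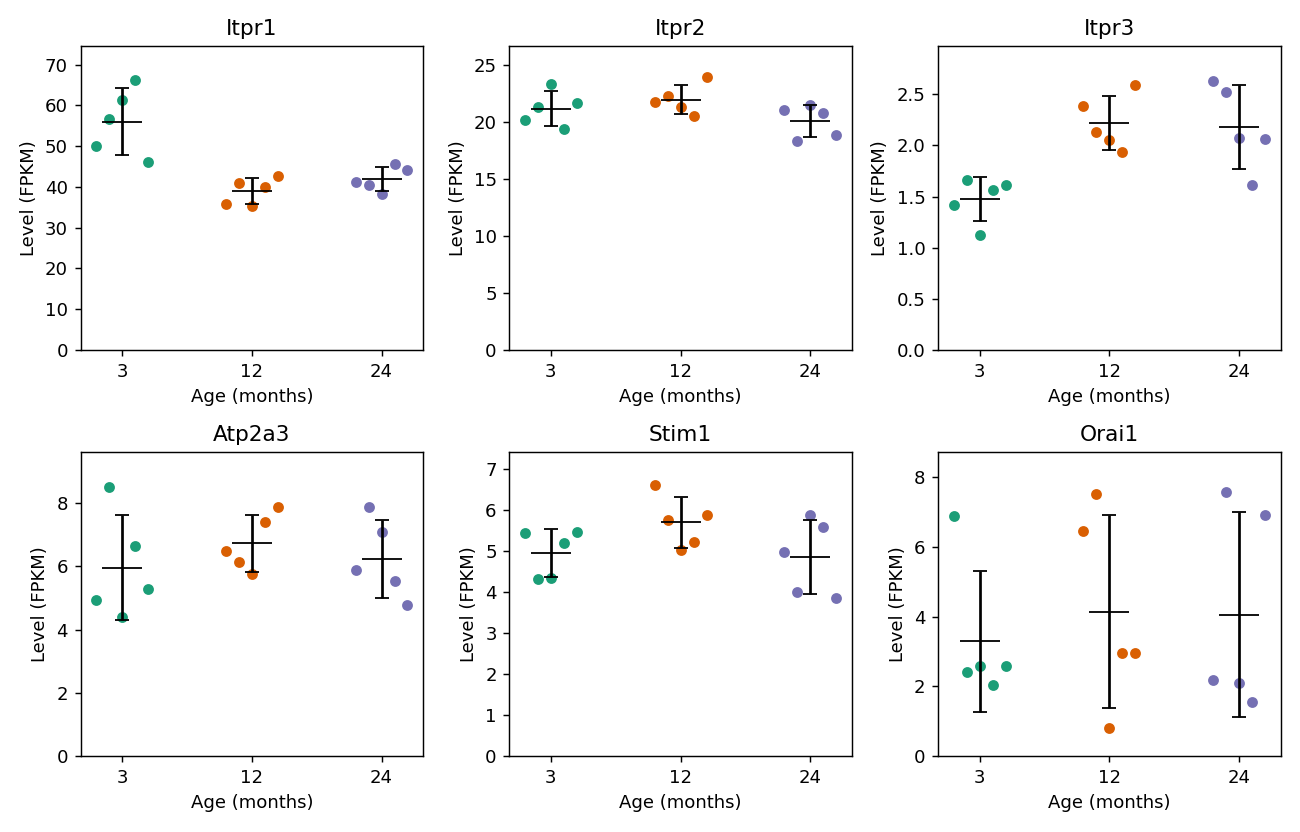
FPKM of Itpr1, Itpr2, Itpr3, Atp2a3, Stim1 and Orai1 by age in months; points are mice, and bars are the mean ± SD of 5 mice. Itpr1 is highest in the 5 youngest mice, Itpr2 is level, and Orai1 splits within every age.

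Counted together, 4 of the 8 genes had p under 0.05 at 12 against 3 months, 3 lower and 1 higher, where 14.3% of all 31637 genes did, 2.9% lower and 11.4% higher. With 24 against 12 months 1 of 8 did, lower, where 6.43% of all genes did, 3.36% lower and 3.07% higher. At 24 against 3 months 4 of 8 did, where 14.9% of all genes did, 3.47% lower and 11.4% higher, and nothing is read from that count because the members were chosen on this comparison. The other counts each share mice with it, so they are not independent of that choice. The median log2 fold change of the 8 genes was 0.11 at 12 against 3 months and -0.11 at 24 against 12 months, and that of all genes was 0.02 and 0.00.

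A list of 86 other genes of calcium handling, of which 79 had a row, was examined beside the members. At 12 against 3 months 15 of 79 had p under 0.05, 11 higher and 4 lower, where 14.3% of all genes did. On TPM, for which no share of all genes is given here, the split was 7 higher and 6 lower. At 24 against 3 months 17 of 79 did, 8 higher and 9 lower, where 14.9% of all genes did. Of the 79, 10 did at 24 against 12 months, 2 higher and 8 lower, where 6.43% of all genes did. After adjustment over all genes 1 gene passed in limma, Hspa5 at 24 against 3 months, where 0.211% of all genes were called lower. For 24 against 12 months that share was 0.0031%. The list was chosen with earlier results of these data known, so the pass of Hspa5 was not a fresh test. The median log2 fold change of the list was 0.06 at 12 against 3 months, 0.02 at 24 against 3 months and -0.05 at 24 against 12 months.

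Among the 15 luminal calcium-binding proteins, Hspa5, the ER chaperone BiP that also binds calcium, fell by 1.05 ± 0.14 on the log2 scale between 3 and 24 months (limma adjusted p = 0.0165). It had means of 59.9 ± 8.46, 39.4 ± 7.60 and 28.6 ± 5.87 FPKM (SD, n = 5 each). Calr, the main calcium buffer of the ER, had means of 142 ± 34.6, 183 ± 31.9 and 150 ± 27.2 FPKM. Rcn1, another calcium-binding protein of the ER lumen, had means of 1.46 ± 0.22, 2.63 ± 0.36 and 3.25 ± 1.57 FPKM, with a log2 fold change of 0.56 ± 0.11 at 12 against 3 months (limma adjusted p = 0.0720).

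The genes with the smallest p in each direction came from several roles at 12 against 3 months, and none passed after adjustment. Smdt1, a subunit of the mitochondrial calcium uniporter, had a log2 fold change of 0.72 ± 0.15 (limma adjusted p = 0.0838). Bok, a BCL2-family protein that binds IP3 receptors, had 0.78 ± 0.22 (limma adjusted p = 0.168). Of the lower genes Hspa5 had the smallest p, with -0.60 ± 0.14 (limma adjusted p = 0.0982). Atp2c1, the calcium pump of the Golgi, had -0.33 ± 0.081 (limma adjusted p = 0.115), and Saraf, which limits store-operated entry, had -0.32 ± 0.10 (limma adjusted p = 0.208).

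Among the genes lower at 24 than at 12 months, the smallest p values belonged to Pln, the SERCA inhibitor phospholamban, to Plcd4, a phospholipase C, and to Slc8a1, the sodium-calcium exchanger. Their log2 fold changes were -0.50 ± 0.14, -0.24 ± 0.070 and -0.54 ± 0.16, with limma adjusted p of 0.673, 0.673 and 0.680. Among the higher ones they belonged to Plcb4, another phospholipase C, to Atp2c2, a Golgi pump, and to Mrln, a SERCA inhibitor of muscle. Their log2 fold changes were 0.35 ± 0.13, 0.13 ± 0.050 and 0.20 ± 0.094, with limma adjusted p of 0.747, 0.747 and 0.789. Pln, Plcd4, Atp2c2 and Mrln were near the floor, with means of 0.769, 0.692, 0.0762 and 0.134 FPKM at 12 months. At 24 months their means were 0.265, 0.428, 0.175 and 0.304 FPKM. The ryanodine receptors, the release channels of muscle, did not exceed 0.445 FPKM in any mouse.

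**Figure D5:**
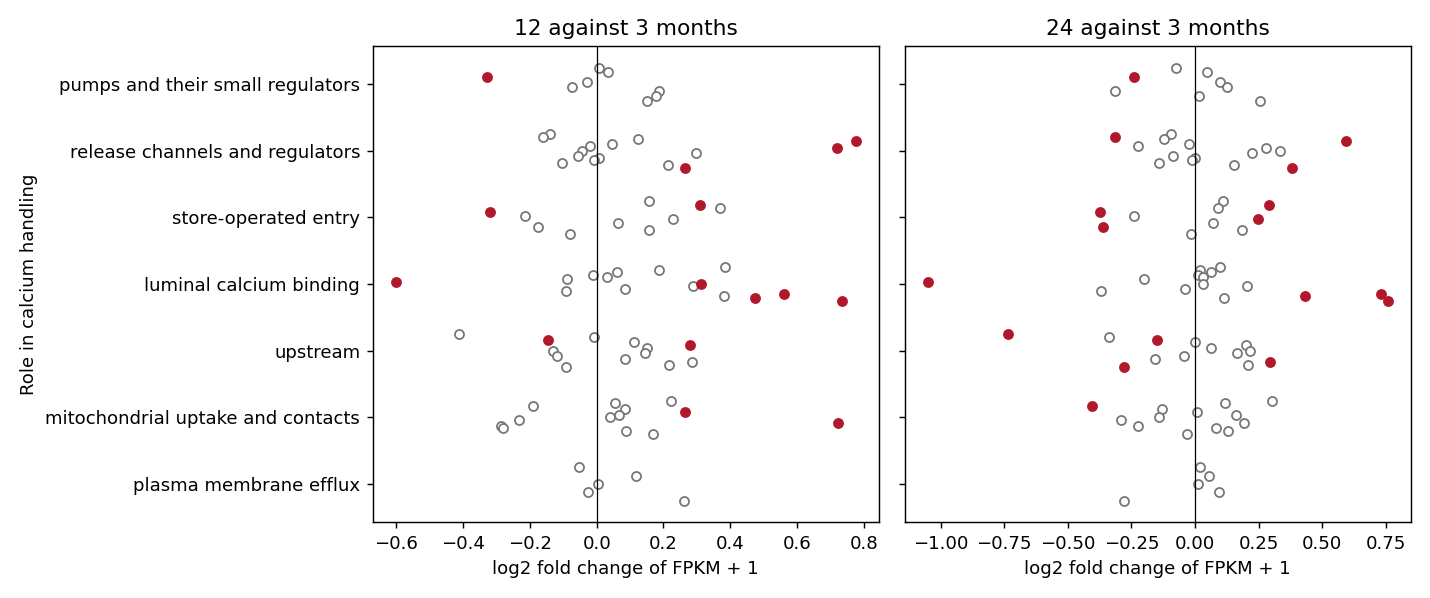
Log2 fold change of FPKM + 1 of the 79 calcium-handling genes by role, at 12 against 3 months (left) and 24 against 3 months (right); each point is a gene, filled where p was under 0.05 in limma. Filled points lie on both sides of 0, and the lowest in both panels is Hspa5.

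Among 13445 genes with a mean of at least 1 FPKM, the 5 whose log2(FPKM + 1) was most like that of Atp2a2 over the 15 mice were Nfil3, Hspa5, Hsph1, Unc5c and Hspa8, with Pearson's r of 0.92, 0.92, 0.92, 0.91 and 0.90. Nfil3, a transcription factor with a daily rhythm, had means of 8.10 ± 2.61, 1.11 ± 0.56 and 0.67 ± 0.25 FPKM (SD, n = 5 each). Hspa8 and Hsph1 encode cytosolic chaperones, and Hspa8 had means of 728 ± 114, 370 ± 55.6 and 276 ± 83.5 FPKM. Most like Gm43360 were Myrf, Gstt1, Gm21009, Grk5 and Rab25, with r of 0.90, 0.85, 0.85, 0.84 and 0.84. These values describe 15 mice that share their ages.

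Circular RNAs form when a downstream splice donor joins an upstream acceptor. Of the members, Atp2a2 had 2, Itpr1 43 and Itpr2 34, and the other 5 genes had none. The joins of both Atp2a2 circles are shown because they set each circle apart from the linear RNA, with the end of the last exon in lower case and the start of the first exon in capitals, 20 bases each. circRNA3509 spans chr5:122466828-122473290 and holds 5 exons, and circRNA8468 spans chr5:122489238-122491785 and holds exons 4 and 5, the first of which follows Gm43360.

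circRNA3509 junction: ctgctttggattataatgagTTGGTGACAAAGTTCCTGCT
circRNA8468 junction: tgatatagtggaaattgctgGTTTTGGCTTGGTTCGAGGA

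The counts that follow may not measure circular RNA alone, for the reasons given after them. circRNA3509 had estimated counts of 5022, 4796, 4476, 5653 and 4587 at 3 months. At 12 months it had 4356, 3487, 3923, 2783 and 3355, and at 24 months 3302, 2738, 2934, 3472 and 3045. The 3-month-old mice were above all others, where 0.26% of all circular RNAs had lower counts without overlap at 12 months and 1.27% at 24 months, as deposited and not scaled for depth. At 12 against 3 months its scaled count fell by 0.63 ± 0.084 on the log2 scale (edgeR adjusted p = 0.00294) and circRNA8468 by 0.55 ± 0.095 (edgeR adjusted p = 0.0102). From 12 to 24 months their log2 fold changes were -0.19 ± 0.066 and -0.15 ± 0.089 (edgeR adjusted p = 0.173 and 0.397).

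At 12 against 3 months the counts of 24 of the 79 circles fell and none rose in edgeR, namely 2 of Atp2a2, 22 of Itpr1 and 0 of 34 of Itpr2, where 6.63% of all circular RNAs were called and 3.2% were lower. The number ranged between 5 and 27 when 1 mouse was left out. DESeq2 called 33 lower, 2 of Atp2a2, 30 of Itpr1 and 1 of Itpr2, and 1 higher, circRNA8425 of Itpr2, whose edgeR log2 fold change was 0.53 ± 0.16 (adjusted p = 0.0679 in edgeR and 0.0341 in DESeq2). For 24 against 12 months 0 of 79 were called in edgeR and 1 in DESeq2, where 0.738% of all were called in edgeR. The share of all circular RNAs called in DESeq2 is not given here, so nothing is read from the DESeq2 counts. At 24 against 3 months 22 were called in edgeR, all lower, where 13.3% of all circular RNAs were called and 6.61% were lower, and nothing is read from that count. The count at 12 against 3 months rests on the same 3-month-old mice and is not independent of the choice of genes.

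In 268 nested pairs of exonic Itpr1 circles the outer circle had at least the count of the inner one in 100% of 4020 values, and in 122 such pairs of Itpr2 it did in 100% of 1830. The highest Itpr1 circle spanned 57 exons and had a mean count of 7971. The FPKM of circRNA3509 averaged 123, above the 96.4 of the whole Atp2a2 gene, and correlated with it over the 15 mice with r = 0.99, as a description. How the reads of overlapping circles and of the linear RNA were divided is not given in the sources used here, so the counts may hold reads of the linear RNA. A lower count is not shown to be a lower level of the circular form, and the calls are not taken as separate from one another or from the gene's level.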

How the data were processed

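Ages came from the age field of the labels, which 10 of 15 sample titles contradict. The labels describe ribosomal RNA removal and a stranded kit, whereas the paper's methods describe oligo(dT) selection. The labels' processing notes name TopHat and StringTie, and the paper's methods name Bowtie2 and HISAT2. Coordinates matched GENCODE on GRCm38. The authors deposited FPKM and mean coverage per transcript (StringTie), and estimated counts and FPKM of circular RNAs, whose caller is not given in the sources used here. Aligned bases were computed as the ratio of deposited coverage to FPKM.

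Gene levels, deposited as transcript FPKM, were summed over class codes =, c, j and o. Genes and transcripts above 0 in any mouse compared were tested on log2(FPKM + 1), which understates changes of low genes, with limma 3.58.1 (trend) in R 4.3.3, and circular counts, rounded and above 0 in at least 5 mice, with edgeR 4.0.16 (TMM, quasi-likelihood). Adjusted p-values from limma and edgeR are Benjamini-Hochberg over all features, those of shares over 12 tests and those of correlations over 7. Counts at p under 0.05 and transcript calls used unadjusted p. "Rose" and "fell" mark adjusted p under 0.05. Shares used exact permutation tests (252 assignments). Spread between 5 mice sets the precision. Named genes were the members, their transcripts and circles, calcium-list genes passing adjustment or else the 3 smallest p in each direction, neighbours and the 5 most alike. The members and lists were chosen with earlier results of these data known. The tests were tested on simulated data: for 24 against 3 months, limma called 28.1% of 64 genes changed by a log2 fold change of 0.6 and 71.2% of 66 changed by 1 among 13446 genes, and 0% and 16.1% of such transcripts among 30190. The simulation held only genes and transcripts with a mean of at least 1 FPKM, with normally distributed errors. The tests of the real data adjusted over more features, including lower ones, so these rates may be too high for them. Sequences came from GENCODE M21 transcripts and the study's primer table.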

Additional observations from a re-analysis of the deposited data

Results flagged for a closer look

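Among 36 groups of 5 mice examined, over the member genes, 2 shares and both Atp2a2 circles, 2 held a mouse far from the others of its age, and chance flags about 1 in 20 groups. Orai1 stood at 6.88 FPKM in the 3-month-old mouse of replicate 5, against 2.03 to 2.58 FPKM in the other 4. The estimated count of circRNA8468 was 1258 in the same mouse (1258.5 before rounding), against 1380 to 1430 in the other 4.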

How the results depend on the processing

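No paired analysis was possible because the ages share no replicate numbers. The fall of Atp2a2 at 12 against 3 months lost its call, with the same direction, on TPM, with a robust variance prior (adjusted p = 0.0524), with class code = alone (adjusted p = 0.0693) and without each of the 10 mice. Members with p under 0.05 at 24 against 12 months numbered 1, and 0 on TPM, 2 with class code = alone, and between 1 and 2 with a mouse left out. The calcium list at 24 against 3 months had 17, and 10 with class code = alone, and between 11 and 18 with a mouse left out, with 11 without replicates 5, 31 or 33. Member transcripts called at 12 against 3 months numbered 1, and 5 on TPM, 6 with a pseudocount of 0.1, and between 0 and 2 with a mouse left out. For 24 against 12 months there were 0, and 2 on TPM, 1 with the filter, 1 with the pseudocount, and between 0 and 1 with a mouse left out. At 24 against 3 months leaving out a mouse gave between 1 and 3. Member circles called numbered between 5 and 27 at 12 against 3 months (5 without replicate 8, 6 without 19, 9 without 17 or 18, 12 without 20, 14 without 7 or 21) and between 8 and 24 at 24 against 3 months (8 without replicate 33, 11 without 34, 12 without 35 or 7, 13 without 8). DESeq2 gave 1 at 24 against 12 months. Shares of all features called under these other settings are not given here, so nothing is read about the members from such counts.

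Directions reversed for uncalled values. The SERCA2b share at 24 against 12 months lay between -0.64 and 2.91 points with a mouse left out, with -0.23, -0.06 and -0.64 without replicates 21, 32 and 33. The r of Gm43360 with Atp2a2 was 0.52 without centring ages. For 24 against 12 months Gm43360 ranged from -0.37 to 0.24 with a mouse left out (0.24 without replicate 34). Itpr3 was 0.027 on TPM and ranged from -0.073 to 0.045, above 0 without replicates 21 or 34. Orai1 was 0.060 on TPM and 0.0083 with a pseudocount of 0.1, and ranged from -0.34 to 0.21, above 0 without replicates 17, 18, 31, 33 or 34. At 12 against 3 months Orai1 ranged from -0.072 to 0.49, below 0 without replicates 17 or 18. The cause was not tested.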
